A study of Mus musculus with 7 samples.

Results

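CXC chemokines are small secreted or membrane-bound proteins that direct leukocyte movement. The 8 ligands described here are the neutrophil attractants Cxcl1, Cxcl2, Cxcl3 and Cxcl5, the interferon-linked ligands Cxcl9, Cxcl10 and Cxcl11, and Cxcl16. They were taken by symbol from 18193 measured genes, and 13 probe sets carried one of the 8 symbols alone. Where a gene had several, its brightest probe set by the mean of the 7 arrays was used and the others are given beside it.

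Affymetrix arrays had been hybridised with biotinylated cRNA made from total RNA of mouse macrophages grown from bone marrow. This cell type was kept and stimulated in culture. The groups were cells pretreated with MDP and then given MDP, cells pretreated with Pam3CSK4 and then given MDP, and naive cells given MDP. There were also cells pretreated with MDP and then given Pam3CSK4, cells pretreated with Pam3CSK4 and then given Pam3CSK4, naive cells given Pam3CSK4, and naive unstimulated cells. Pretreatment lasted 24 h and stimulation 3 h, with MDP at 10 mg/ml and Pam3CSK4 at 1 mg/ml as the labels write the doses. These are unusually high for cell culture, and the unit is in doubt. MDP is muramyl dipeptide, a fragment of bacterial peptidoglycan sensed inside the cell by Nod2. Pam3CSK4 is a synthetic bacterial lipopeptide sensed at the cell surface by Tlr2. The series compares naive with tolerant macrophages, and its design text calls a gene induced at 3-fold over unstimulated cells and tolerized where it is more than 2-fold lower in tolerant cells. Each group had 1 array, so no difference below has a replicate check, no p-value is given and precision is limited by the small number of arrays. No array came from cells that were pretreated and then left without a second ligand, so what remained of the first exposure and what the second added cannot be told apart. The mouse strain is not given in the sources used here.

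Cxcl1, Cxcl2, Cxcl3 and Cxcl5 carry a glutamate-leucine-arginine motif before the CXC cysteines and attract neutrophils through the receptor Cxcr2. Macrophages transcribe them within hours of sensing bacteria, largely through the transcription factor NF-kB, and their short-lived mRNAs are held in check by RNA-binding proteins. Cxcl9, Cxcl10 and Cxcl11 lack that motif, are induced by interferons as well as by NF-kB, and attract activated T cells and NK cells through Cxcr3. Cxcl16 is made as a membrane protein that binds Cxcr6, takes up oxidized lipoprotein and phosphatidylserine, and is released by the proteases Adam10 and Adam17.

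The regulatory sequence next to the start of these genes is shown because Cxcl1, Cxcl2 and Cxcl3 rose together with Pam3CSK4 and their windows share a stretch of letters. For 5 of the 8 members the RefSeq promoter table (mouse build GRCm38.p6) held the bases before the annotated start, and the 250 bases directly upstream are printed 5′ to 3′ on the gene's strand. They lie at chr5:90890995-90891244 on the plus strand (Cxcl1), chr5:90903649-90903898 on the plus strand (Cxcl2), chr5:90785851-90786100 on the plus strand (Cxcl3), chr5:92328080-92328329 on the minus strand (Cxcl9) and chr5:92348890-92349139 on the minus strand (Cxcl10). Capitals mark matches, on either strand, to GGGNNNTTCC (NF-kB), GAAANNGAAA (the interferon-stimulated response element, ISRE), TTCNNNGAA (the interferon gamma activated site, GAS), TGANTCA (AP-1) and TATAAA (the box named after these letters).
Cxcl1: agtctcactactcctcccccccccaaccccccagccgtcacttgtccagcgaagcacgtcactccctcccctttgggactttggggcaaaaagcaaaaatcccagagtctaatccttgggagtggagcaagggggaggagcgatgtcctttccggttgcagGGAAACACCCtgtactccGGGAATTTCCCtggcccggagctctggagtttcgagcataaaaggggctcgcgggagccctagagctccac
Cxcl2: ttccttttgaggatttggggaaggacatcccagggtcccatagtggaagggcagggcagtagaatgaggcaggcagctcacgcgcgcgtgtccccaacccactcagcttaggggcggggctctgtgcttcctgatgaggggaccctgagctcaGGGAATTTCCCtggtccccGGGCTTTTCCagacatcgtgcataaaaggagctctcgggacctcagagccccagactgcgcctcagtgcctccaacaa
Cxcl3: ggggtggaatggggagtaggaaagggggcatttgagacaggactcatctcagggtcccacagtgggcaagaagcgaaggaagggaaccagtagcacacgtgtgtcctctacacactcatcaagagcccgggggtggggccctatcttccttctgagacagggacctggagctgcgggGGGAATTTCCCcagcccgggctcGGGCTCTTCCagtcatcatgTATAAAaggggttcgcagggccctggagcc
Cxcl9: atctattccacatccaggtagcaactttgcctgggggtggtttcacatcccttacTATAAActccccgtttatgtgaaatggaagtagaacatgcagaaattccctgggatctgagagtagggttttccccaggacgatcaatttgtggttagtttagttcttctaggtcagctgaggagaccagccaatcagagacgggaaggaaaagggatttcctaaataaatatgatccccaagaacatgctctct
Cxcl10: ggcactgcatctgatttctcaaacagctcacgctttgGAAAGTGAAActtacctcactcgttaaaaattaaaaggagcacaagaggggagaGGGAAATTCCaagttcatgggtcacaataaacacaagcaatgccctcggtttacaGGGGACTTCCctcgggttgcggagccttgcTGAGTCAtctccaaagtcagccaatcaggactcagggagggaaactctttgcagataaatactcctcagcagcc
Cxcl5, Cxcl11 and Cxcl16 are not shown.

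The NF-kB letters were found in 2 separate stretches in each of the Cxcl1, Cxcl2, Cxcl3 and Cxcl10 windows and in none of the Cxcl9 window, while 4.65% of the 32851 promoters of the same length held a match. In Cxcl1, Cxcl2 and Cxcl3 one of the stretches was GGGAATTTCCC, in which a plus-strand and a minus-strand match overlap. It began 71 bases before the start in Cxcl1, 97 in Cxcl2 and 73 in Cxcl3. That stretch was picked out after the windows had been read, and 14 of the 32851 promoters (0.0426%) held it, these 3 among them. The other stretch began 89 bases before the start in Cxcl1, 78 in Cxcl2 and 50 in Cxcl3, and the Cxcl10 stretches began at 159 and 104. Cxcl10 alone of the 5 held the ISRE letters, as GAAAGTGAAA from 213 to 204 bases before the start, against 2.98% of all promoters. Cxcl10 was also the 1 window with the AP-1 letters (6.75% of all promoters). The TATA letters stood 30 bases before the start in Cxcl3 and 195 in Cxcl9 (12.4% of all promoters), and none of the 5 windows held the GAS letters (7.02%). A match is a run of letters in this window and does not show binding, and a missing match says nothing about the factor.

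On all 7 arrays the 8 macrophage markers measured were above the array median, with Csf1r, Cd68 and Lyz2 between 14.01 and 14.87 on the log2 scale. The array medians lay between 5.48 and 5.55. Values are deposited log2 expression, differences are log2 differences between 2 arrays, and a fold is 2 to that power. A value below its array's median could not be told from background. Where 1 of 2 values was below it, the difference was counted from the median and is written "at least", and where both were, no fold is given. The small-subunit ribosomal RNA controls were 1.70 above the unstimulated array in cells given Pam3CSK4 before Pam3CSK4, and 0.28 to 0.48 above it on the other 5 stimulated arrays.

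Cxcl1, a strong neutrophil attractant also called KC, separated MDP from Pam3CSK4 most in naive and in MDP-pretreated cells, by the probe set used. On the arrays given MDP last it was at 7.10 (MDP before MDP), 9.81 (Pam3CSK4 before MDP) and 7.57 (naive). On those given Pam3CSK4 last it was at 12.11 (MDP before Pam3CSK4), 9.49 (Pam3CSK4 before Pam3CSK4) and 11.50 (naive), and unstimulated cells had 7.20. The values fall into 3 levels, with both Pam3CSK4-pretreated arrays between the Pam3CSK4 arrays of the other cells and the 3 arrays that never saw Pam3CSK4. In bulk RNA, fewer cells that express a gene and less RNA per cell cannot be told apart.

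The other Cxcl1 probe sets kept the order of these 3 levels but not the distances between and within them. By 1419209_at, Cxcl1 was at 6.41, 10.08 and 6.87 in MDP before MDP, Pam3CSK4 before MDP and naive cells with MDP. It was at 12.32, 9.75 and 11.78 in MDP before Pam3CSK4, Pam3CSK4 before Pam3CSK4 and naive cells with Pam3CSK4, and at 5.12 in unstimulated cells, below that array's median. The span over the arrays was 7.20 by this probe set, 5.01 by 1457644_s_at, which is used here, and 2.72 by 1441855_x_at. The suffixes _s_at and _x_at mark probe sets that may also bind related transcripts.

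Cxcl2, also called MIP-2 and induced early in macrophages, was at 10.02 (MDP before MDP), 13.13 (Pam3CSK4 before MDP) and 10.95 (naive) on the arrays given MDP last. With Pam3CSK4 last it was at 13.71 (MDP before Pam3CSK4), 13.03 (Pam3CSK4 before Pam3CSK4) and 13.61 (naive), against 8.53 in unstimulated cells. All 4 arrays that had seen Pam3CSK4 lay within 0.68 of each other and at least 2.08 above the rest. Cxcl3, a close relative in sequence and the neighbour of these genes on chromosome 5, had the same split. It was at 8.78 (MDP before MDP), 12.24 (Pam3CSK4 before MDP) and 10.11 (naive) with MDP last, and at 12.38 (MDP before Pam3CSK4), 12.16 (Pam3CSK4 before Pam3CSK4) and 12.16 (naive) with Pam3CSK4 last. Unstimulated cells had 6.43, so both MDP arrays without Pam3CSK4 stood between the unstimulated array and the others.

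Cxcl5, the neutrophil attractant also called LIX, was measured above background in Pam3CSK4-pretreated cells only, among these 7 arrays. It was at 7.63 in Pam3CSK4 before MDP and at 7.48 in Pam3CSK4 before Pam3CSK4. It lay below the array median on the other 5 arrays, at 3.59 in MDP before MDP, 5.15 in MDP before Pam3CSK4, 3.74 in naive cells with MDP, 4.94 in naive cells with Pam3CSK4 and 3.68 in unstimulated cells. Unlike Cxcl1, Cxcl2 and Cxcl3, it was therefore not measurable after 3 h of Pam3CSK4 in naive cells.

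**Figure D1:**
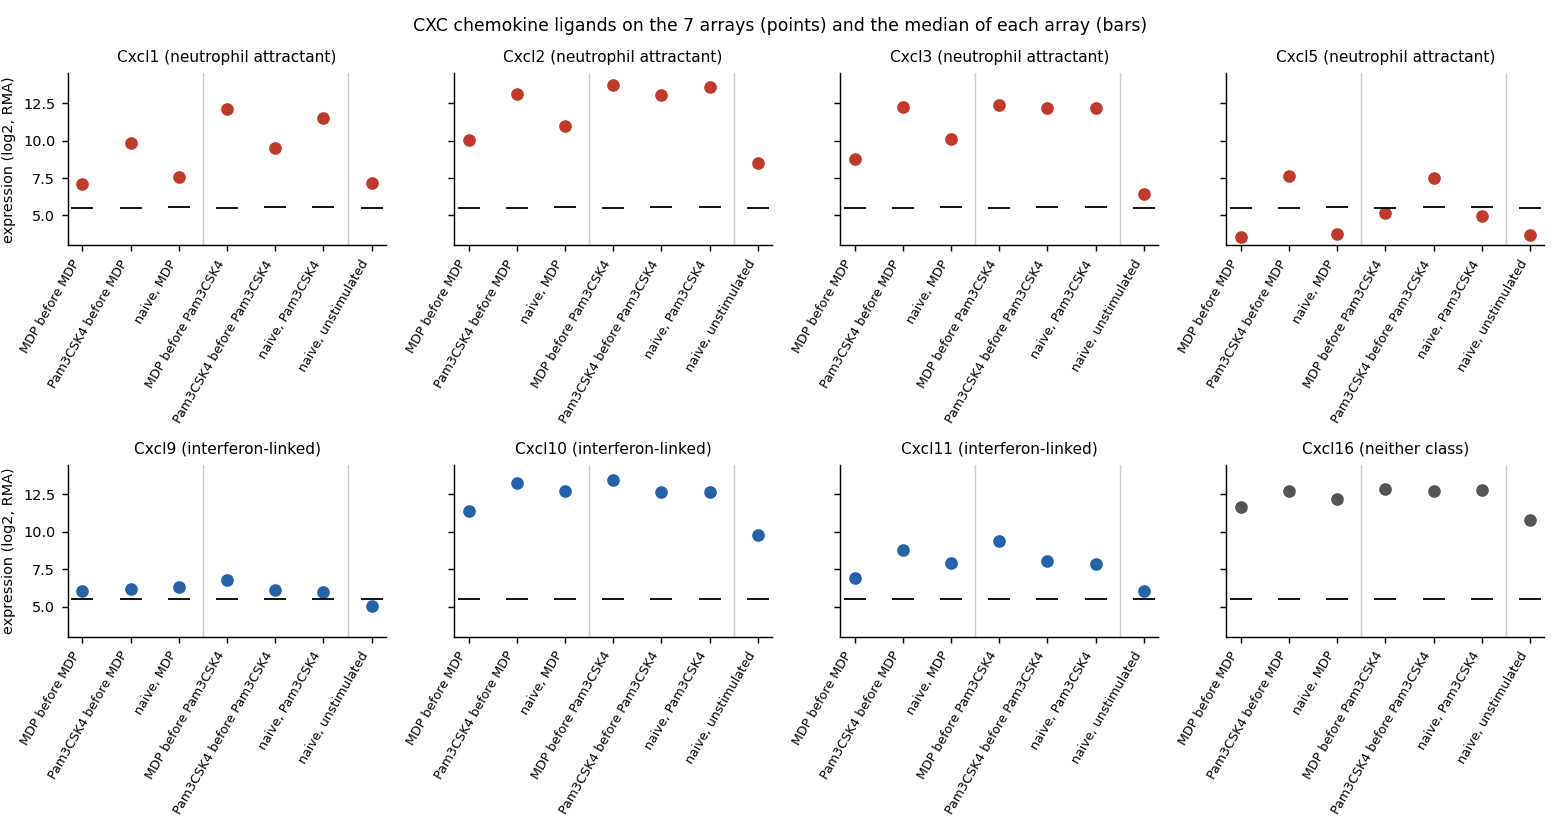
Each panel plots 1 ligand's log2 expression (vertical axis) on the 7 arrays (points), with arrays given MDP last on the left, Pam3CSK4 last in the middle and the unstimulated array on the right. Short bars mark each array's median, 5.48 to 5.55. Cxcl5 lies above the bars on the 2 arrays of Pam3CSK4-pretreated cells, and Cxcl9 stays within 1.29 of them on every array.

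The interferon-linked ligands did not divide the arrays by Pam3CSK4. Cxcl10, also called IP-10, was at 11.38 (MDP before MDP), 13.27 (Pam3CSK4 before MDP) and 12.70 (naive) with MDP last. It was at 13.46 (MDP before Pam3CSK4), 12.68 (Pam3CSK4 before Pam3CSK4) and 12.63 (naive) with Pam3CSK4 last, and at 9.78 in unstimulated cells. The lowest of the stimulated arrays was MDP before MDP, and both naive stimulated arrays and Pam3CSK4 before Pam3CSK4 lay within 0.07 of each other.

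Cxcl11, the other strong Cxcr3 ligand, repeated this order at its 2 ends. Cxcl11 was at 6.94 (MDP before MDP), 8.78 (Pam3CSK4 before MDP) and 7.93 (naive) with MDP last, at 9.37 (MDP before Pam3CSK4), 8.06 (Pam3CSK4 before Pam3CSK4) and 7.85 (naive) with Pam3CSK4 last, and at 6.03 in unstimulated cells. RefSeq lists mouse Cxcl11 in this build as a transcribed pseudogene, and strains are known to differ in whether the gene encodes the protein. Its other probe set, 1419698_at, stayed between 3.71 and 4.09, below the median on all 7 arrays.

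Cxcl9, also called MIG and known as a target of interferon gamma, was weak throughout. Its value was 6.05 (MDP before MDP), 6.21 (Pam3CSK4 before MDP) and 6.34 (naive) with MDP last. With Pam3CSK4 last it was 6.79 (MDP before Pam3CSK4), 6.10 (Pam3CSK4 before Pam3CSK4) and 5.96 (naive), and 5.02 in unstimulated cells, below the median there. The 6 stimulated arrays lay within 0.83 of each other, and 1456907_at, the other Cxcl9 probe set, stayed between 3.70 and 3.78, below the median on all 7 arrays.

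Cxcl16, the membrane-bound ligand of neither class, was at 11.65 (MDP before MDP), 12.76 (Pam3CSK4 before MDP) and 12.17 (naive) with MDP last. With Pam3CSK4 last it was at 12.83 (MDP before Pam3CSK4), 12.71 (Pam3CSK4 before Pam3CSK4) and 12.82 (naive), against 10.81 in unstimulated cells. As for Cxcl2 and Cxcl3, the 4 arrays that had seen Pam3CSK4 were alike, within 0.12, and all lay above the MDP arrays. Its other probe set, 1449195_s_at, had the same spread over the arrays, 2.04 against 2.02.

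In naive cells given MDP, Cxcl2, Cxcl3, Cxcl10 and Cxcl11 rose at least 3-fold over unstimulated cells, 4 of the 8 members, where 0.22% of all genes did. Cxcl3 rose 12.8-fold, Cxcl10 7.60-fold, Cxcl2 5.34-fold and Cxcl11 3.72-fold. Cxcl16 was 1.36 higher, short of 3-fold, and Cxcl9 at least 0.83 higher. The used Cxcl1 probe set differed by 0.38, but 1419209_at by at least 1.37, and by the deposited values of that probe set (1.75) Cxcl1 was past 3-fold. Cxcl11 was at 0.94 when its probe sets were averaged and was short of 3-fold also with 32 added to the linear values, so its call depends on these choices. MDP thus gave 2 attractants and 2 interferon-linked ligands past the threshold, and the class medians were 1.40 for the neutrophil attractants and 1.90 for the interferon-linked ligands. Without Cxcl5, which is below background on both arrays, the attractant median was 2.42 and the order of the classes turned.

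In naive cells given Pam3CSK4, 6 of the 8 members rose at least 3-fold over unstimulated cells, against 1.28% of all genes. Cxcl3 rose 53.1-fold, Cxcl2 33.7-fold and Cxcl1 19.8-fold, the last of these at least 77.7-fold by 1419209_at and 3.57-fold by 1441855_x_at. Cxcl10 rose 7.24-fold, Cxcl16 4.04-fold and Cxcl11 3.53-fold. Cxcl9 was at least 0.46 higher, and Cxcl5 lay below the median on both arrays. The call for Cxcl11 is lost when its probe sets are averaged (0.90) and with 32 added to the linear values (1.43). The attractants' median difference was 4.69, against 1.82 for the interferon-linked ligands, while the median of all genes was 0.00. The same unstimulated array serves this comparison and the MDP one, so each is given by its own values.

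A comparison of both naive stimulated arrays separated Cxcl1, Cxcl2 and Cxcl3 from the interferon-linked ligands. With Pam3CSK4, Cxcl1 was 15.3-fold higher than with MDP, Cxcl2 6.32-fold and Cxcl3 4.14-fold. By 1419209_at Cxcl1 was 30.1-fold higher, and by 1441855_x_at 3.47-fold, less than Cxcl2 and Cxcl3. Cxcl5 was 1.20 higher by the deposited values, with both values below background. These were 4 of the 8 members past 2-fold, or 3 without Cxcl5, against 1.4% of all genes. Cxcl9, Cxcl10 and Cxcl11 differed by -0.38, -0.07 and -0.08, and Cxcl16 by 0.66. The 3 attractants measured above background ranged from 2.05 to 3.93 and the interferon-linked ligands from -0.38 to -0.07. The doses of MDP and Pam3CSK4 differ and 1 dose of each was used, so the comparison holds for these doses only.

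**Figure D2:**
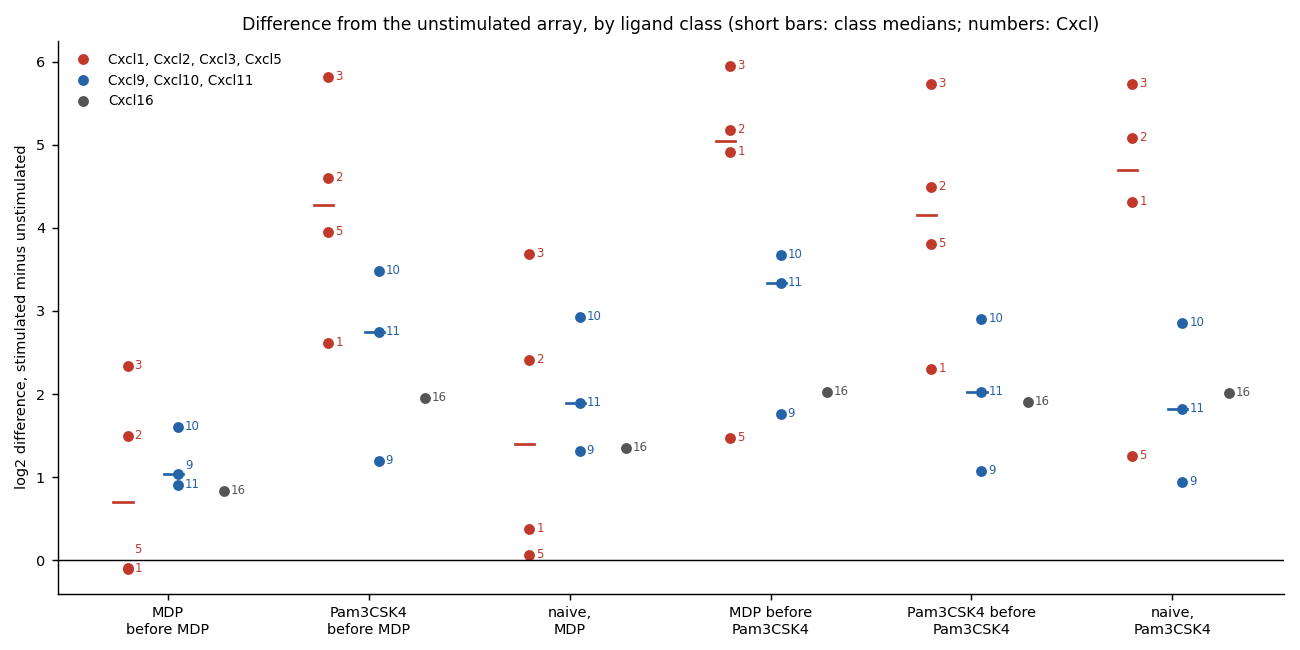
Points are log2 differences of each ligand from the unstimulated array (vertical axis) on the 6 stimulated arrays (horizontal axis), with the number in the ligand's name beside each point and short bars at the class medians. Attractant medians are 4.15 to 5.05 on the 4 arrays that had seen Pam3CSK4, and 0.70 and 1.40 on the 2 arrays that had seen MDP alone. All Cxcl5 and Cxcl9 points are counted from an unstimulated value below background. For Cxcl5 points other than those of Pam3CSK4-pretreated cells, both values lie below it.

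Cells that met MDP for the second time had lower values of the 7 members measured above background than cells meeting it for the first time. Cxcl3 fell 2.53-fold and Cxcl10 by 1.32 on the log2 scale relative to naive cells given MDP, 2 of the 8 members past 2-fold, where 0.291% of all genes were lower by that much. Cxcl11 was at -0.99 and Cxcl2 at -0.92, just inside the threshold, Cxcl16 at -0.52, Cxcl1 at -0.48 and Cxcl9 at -0.28. Cxcl5 was below background on both arrays. All 7 measured differences were below 0, while 43.2% of all genes were above it. The classes overlapped, with medians of -0.92 for the attractants without Cxcl5 and -0.99 for the interferon-linked ligands.

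Over unstimulated cells, MDP before MDP left 2 of the 8 members at least 3-fold higher, Cxcl3 (5.07-fold) and Cxcl10 (3.04-fold), against 0.126% of all genes. Cxcl10 lay close to the threshold, and with 32 added to the linear values it was short of it, at 1.57. Cxcl2 was 1.49 above unstimulated cells, Cxcl11 0.91, Cxcl16 0.84 and Cxcl9 at least 0.55, and Cxcl1 was at -0.10 (at least 0.91 by 1419209_at).

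Pam3CSK4 before Pam3CSK4 split the attractants. Cxcl1 was 4.03-fold below its level in naive cells given Pam3CSK4, and lower on each of its probe sets, by 4.08-fold on 1419209_at and 2.47-fold on 1441855_x_at. Cxcl2 was at -0.58 and Cxcl3 at 0.00, and Cxcl5 was at least 3.84-fold higher. Past 2-fold were therefore 1 of the 8 members on the higher side (2.41% of all genes) and 1 on the lower side (2.3%). Cxcl9, Cxcl10 and Cxcl11 were at 0.14, 0.05 and 0.20, and Cxcl16 at -0.11, none past 2-fold. Cxcl1 in Pam3CSK4 before Pam3CSK4 was still 4.91-fold over unstimulated cells by the probe set used. It was at least 19.1-fold higher by 1419209_at, but 1.45-fold by 1441855_x_at, short of 3-fold.

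Over unstimulated cells, Pam3CSK4 before Pam3CSK4 had 7 of the 8 members at least 3-fold higher, against 1.37% of all genes, with Cxcl9 the exception at 0.60 or more. Cxcl1 is counted by the probe set used, and was short of 3-fold by 1441855_x_at (0.53). Cxcl3 rose 53.1-fold and Cxcl2 22.6-fold. Cxcl10 rose 7.49-fold, Cxcl11 4.07-fold, or by 0.90 when its probe sets were averaged, and Cxcl5 at least 3.95-fold. The ribosomal RNA controls stood apart on this array. On the array of Pam3CSK4 before MDP, where they did not, Cxcl5 was at least 4.36-fold over unstimulated cells and Cxcl1 6.13-fold. By 1419209_at Cxcl1 was at least 23.9-fold higher there, and by 1441855_x_at 1.72-fold.

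Pam3CSK4 before MDP had all 4 attractants higher. Against naive cells given MDP, Cxcl1 was 4.72-fold higher, Cxcl2 4.56-fold, Cxcl3 4.38-fold and Cxcl5 at least 4.23-fold. These 4 of the 8 members were past 2-fold, against 2.14% of all genes. Cxcl1 was 9.22-fold higher by 1419209_at and at 0.74 by 1441855_x_at, the 1 probe set of the 3 that was short of 2-fold. None of the interferon-linked ligands was past 2-fold, with Cxcl11 at 0.85, Cxcl10 at 0.56 and Cxcl9 at -0.12, and Cxcl16 was at 0.60. Cxcl1, Cxcl2 and Cxcl3 spanned 2.13 to 2.24, Cxcl5 was at least 2.08 higher and the interferon-linked ligands spanned -0.12 to 0.85. The classes did not overlap under any of the 8 settings of normalization, probe set choice and floor. No setting used 1441855_x_at alone for Cxcl1, and by it Cxcl1 (0.74) lay below Cxcl11 (0.85), so the classes overlapped. Over unstimulated cells 7 of the 8 members were at least 3-fold higher (1.42% of all genes), again without Cxcl9, which was at least 0.71 higher. Cxcl1 is counted by the probe set used, and was short of 3-fold by 1441855_x_at (0.78). Cxcl10 rose 11.2-fold there and Cxcl11 6.73-fold, or by 1.37 when its probe sets were averaged.

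MDP before Pam3CSK4 had the opposite order of classes. Against naive cells given Pam3CSK4, Cxcl11 was 2.86-fold higher, 1 of the 8 members past 2-fold, where 0.297% of all genes were. Cxcl9 was at 0.83, Cxcl10 at 0.82, Cxcl1 at 0.61, Cxcl3 at 0.22, Cxcl2 at 0.10 and Cxcl16 at 0.01, and Cxcl5 was below background on both arrays. All 7 measured differences were above 0, against 47.9% of all genes. The interferon-linked ligands ranged from 0.82 to 1.51 and the attractants from 0.10 to 0.61, without overlap. That separation is small and was lost under 2 of the 8 settings, averaged probe sets and the addition of 32 to the linear values, and Cxcl11 was at 0.85 when its probe sets were averaged. Over unstimulated cells 7 of the 8 members were at least 3-fold higher (1.79% of all genes), all but Cxcl5. Cxcl3 rose 61.8-fold, Cxcl2 36.3-fold, Cxcl1 30.2-fold, Cxcl10 12.8-fold and Cxcl11 10.1-fold. The 7 included Cxcl9, which by the deposited values passed 3-fold on this array alone and was at least 2.44-fold higher.

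**Figure D3:**
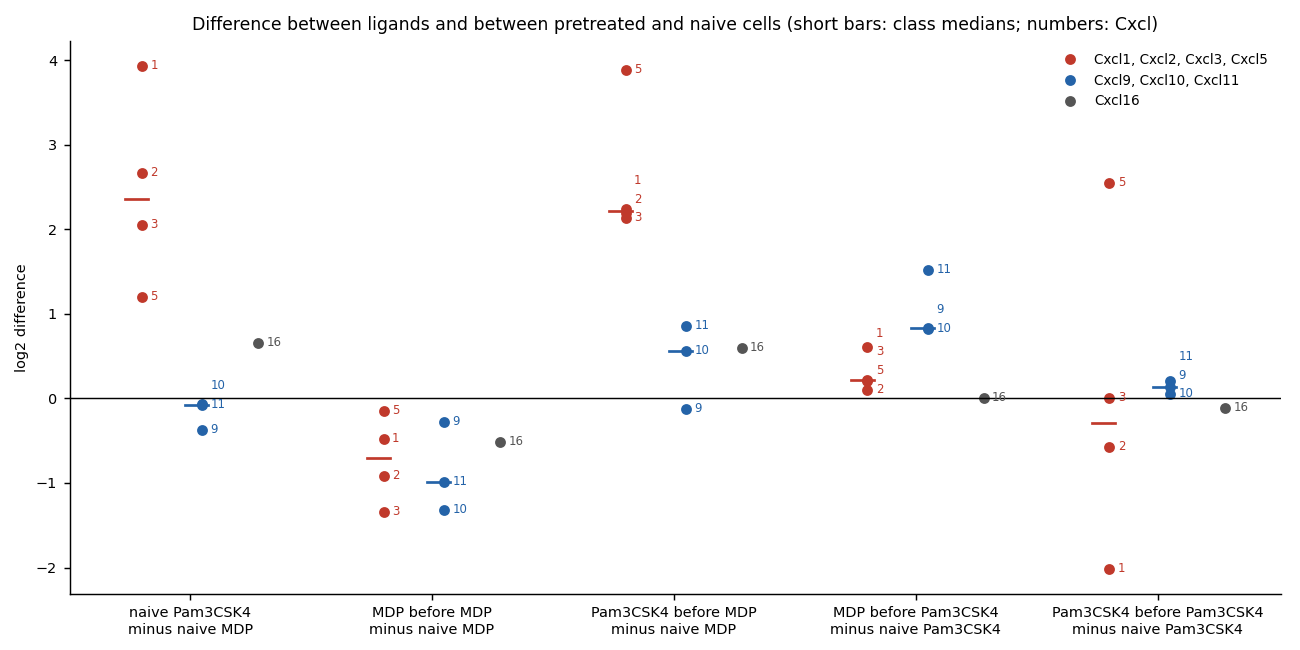
Points are log2 differences between arrays for each ligand (vertical axis), with the number in its name beside the point and short bars at the class medians, for the ligands in naive cells and for 4 pairs of pretreated and naive cells given the same ligand (horizontal axis). The attractants lie above the interferon-linked ligands for naive Pam3CSK4 minus naive MDP and for Pam3CSK4 before MDP, and below them for MDP before Pam3CSK4. Both Cxcl5 values lie below background for naive Pam3CSK4 minus naive MDP, MDP before MDP and MDP before Pam3CSK4. The other Cxcl5 points are counted from a naive value below background.

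The second ligand was compared within each pretreatment. After MDP, cells then given Pam3CSK4 exceeded cells then given MDP by 32.3-fold for Cxcl1, 12.9-fold for Cxcl2, 12.2-fold for Cxcl3, 5.36-fold for Cxcl11 and 4.21-fold for Cxcl10. For Cxcl1 it was 60.1-fold by 1419209_at and 6.61-fold by 1441855_x_at, the latter less than Cxcl2 and Cxcl3. By the deposited values 7 of the 8 members were past 2-fold, or 6 without Cxcl5, which was below background on both arrays, against 2.41% of all genes. After Pam3CSK4, cells then given Pam3CSK4 differed from cells then given MDP by less than 2-fold for every member, from -0.73 (Cxcl11) and -0.58 (Cxcl10) to -0.05 (Cxcl16). Of all genes 0.0% were 2-fold higher and 0.0055% 2-fold lower in that comparison, so the 0 of 8 members past 2-fold are no result about the members. All 8 members were on the lower side, against 49.9% of all genes above 0.

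The pretreatments were also compared with the second ligand held the same. With MDP last, Pam3CSK4-pretreated cells exceeded MDP-pretreated cells past 2-fold for 7 of the 8 members, against 1.91% of all genes. Cxcl3 was 11.1-fold higher, Cxcl2 8.64-fold, Cxcl1 6.56-fold and Cxcl5 at least 4.41-fold. Cxcl10 was 3.69-fold higher, Cxcl11 3.58-fold (0.92 when its probe sets were averaged) and Cxcl16 2.17-fold, and Cxcl9 was at 0.16. With Pam3CSK4 last, Pam3CSK4-pretreated cells were past 2-fold above MDP-pretreated cells for 1 of the 8 members (1.34% of all genes), Cxcl5 at 3.97-fold or more. They were below for 2 of the 8 (2.41% of all genes), Cxcl1 at 6.14-fold and Cxcl11 at 2.48-fold.

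Taking the classes over all 6 stimulated arrays, the attractant median exceeded the interferon-linked median wherever Pam3CSK4 had been given at any time. The classes overlapped on each of those arrays. Over unstimulated cells, Cxcl10 was at 3.49 and Cxcl1 at 2.62 in Pam3CSK4 before MDP, and at 2.90 and 2.30 in Pam3CSK4 before Pam3CSK4. By 1419209_at Cxcl1 was at least 4.58 and 4.25 on these arrays, above Cxcl10, and by 1441855_x_at at 0.78 and 0.53. The difference of the class medians, each counted over unstimulated cells, was 2.12 in Pam3CSK4 before Pam3CSK4, 1.71 in MDP before Pam3CSK4, 1.52 in Pam3CSK4 before MDP and 2.87 in naive cells with Pam3CSK4. It was -0.33 in MDP before MDP and -0.50 in naive cells with MDP. Without Cxcl5 those last values were 0.46 and 0.52, so for cells that saw MDP alone the order of the classes depends on a gene below background. With values below the array median set to it, Pam3CSK4 before MDP gave 0.86. All 6 differences share the unstimulated array, where Cxcl5 and Cxcl9 were below background, and the members of a class are not replicates.

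Each member's pattern over the 6 stimulated arrays was set against the others by the root mean square gap between their log2 differences from unstimulated cells. Cxcl9 and Cxcl16 were closest (0.65), followed by Cxcl11 and Cxcl16 (0.67) and by Cxcl10 and Cxcl11 (0.82). Cxcl2 and Cxcl3 were 1.03 apart, and Cxcl1, by the probe set used, was no nearer than 1.42 to any member, Cxcl11 being the nearest. Its place depends on the probe set. By 1419209_at unstimulated cells had 5.12, below background, against 7.20, and all Cxcl1 differences from them were larger. Gaps by the other Cxcl1 probe sets were not computed. Cxcl3 and Cxcl9 were farthest apart (3.89). All Cxcl9 differences are counted from an unstimulated value below background, and so are those of Cxcl5, so gaps and ranks of these ligands use deposited values that were not measured above it. Small gaps come more easily to genes that moved little, and 45 other genes lay within 0.50 of Cxcl9 and 42 of Cxcl16, against 5 for Cxcl5, 2 each for Cxcl2 and Cxcl11, 1 for Cxcl3 and 0 for Cxcl1 and Cxcl10.

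Among genes outside the family, those most like each member by that gap were these. Traf1, an adaptor of tumour necrosis factor receptors, was nearest to Cxcl2 (0.35), and the early activation marker Cd69 next (0.42). Mmp14, a membrane-bound protease, was nearest to Cxcl3 (0.45), followed by Acod1 (0.74), the enzyme that makes itaconate. For Cxcl5, which was above background on 2 of the 6 arrays, they were the sialic acid-binding lectin Siglece (0.19) and the lipid phosphatase Plpp1 (0.39), and Siglece was 4.06 and 3.88 above unstimulated cells in Pam3CSK4 before Pam3CSK4 and Pam3CSK4 before MDP. For Cxcl1 they were the adhesion protein gene Flrt3 (0.58) and Ppfia3 (0.61), for Cxcl10 the chemerin-binding receptor Ccrl2 (0.51) and the lectin Clec4e (0.55), and for Cxcl11 the heat shock protein gene Hspa1a (0.36) and Mxd1 (0.45). For Cxcl9 they were Treml4 (0.18) and Slco4a1 (0.35), and for Cxcl16 the tumour necrosis factor receptor Tnfrsf1b (0.20) and the inhibitor of apoptosis Birc3 (0.21).

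NF-kB subunits, inhibitors and cofactors were listed because the promoters above carry NF-kB letters. In Pam3CSK4 before Pam3CSK4, 7 of the 12 measured were past 2-fold below naive cells given Pam3CSK4 (2.3% of all genes), with a list median of -1.18 against 0.01 for all genes. Nfkbie, an inhibitor, was at -2.26, the cofactor Bcl3 at -1.95, the subunit Nfkb2 at -1.68 and the inhibitor Nfkbib at -1.60. Cxcl1 was lower with them in that comparison, while Cxcl2 and Cxcl3 were not past 2-fold. In Pam3CSK4 before MDP, 1 of the 12 was 2-fold higher than in naive cells given MDP (2.14% of all genes), Nfkbiz (3.40), a nuclear cofactor known to be needed for some late NF-kB targets, and 1 was lower (1.71%), Nfkbie (-1.41). The list median was -0.18 there, whereas all 4 attractants were past 2-fold. Nfkbiz was at 12.21 in Pam3CSK4 before MDP and 12.12 in Pam3CSK4 before Pam3CSK4, against 8.81 in naive cells with MDP, 12.57 in naive cells with Pam3CSK4 and 8.42 in unstimulated cells. In MDP before MDP, 3 of the 12 were past 2-fold below naive cells given MDP (0.291% of all genes), Nfkbie (-1.61), Relb (-1.31) and Nfkb2 (-1.23), with a median of -0.47. In naive cells 6 of the 12 were 2-fold higher with Pam3CSK4 than with MDP (1.4% of all genes), with a median of 1.03.

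Antiviral interferon-stimulated genes were listed to set beside Cxcl9, Cxcl10 and Cxcl11. In Pam3CSK4 before Pam3CSK4, 16 of the 21 measured were 2-fold higher than in naive cells given Pam3CSK4 (2.41% of all genes), with a median of 1.33, where the 3 interferon-linked chemokines had a median of 0.14. In Pam3CSK4 before MDP, 19 of the 21 were 2-fold higher than in naive cells given MDP (2.14% of all genes), with a median of 1.63, against 0.56 for the 3 chemokines. The GTPase gene Gbp6 was at 3.74, the exonuclease gene Isg20 at 3.54, Oasl1 at 3.09 and Iigp1 at 2.90. In MDP before Pam3CSK4, 10 of the 21 were 2-fold higher than in naive cells given Pam3CSK4 (0.297% of all genes) and 0 lower (0.022%), with a median of 0.84, and the chemokines' median was 0.83. In MDP before MDP, 5 of the 21 were 2-fold higher than in naive cells given MDP (0.385% of all genes), with a median of 0.34, whereas all 3 chemokines were below 0. In naive cells the list median differed by 0.01 between Pam3CSK4 and MDP.

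Components of the interferon loop gave levels beside these. Ifnb1, which encodes interferon beta, was at 5.10 (MDP before MDP), 7.27 (Pam3CSK4 before MDP) and 5.59 (naive) with MDP last, at 6.15 (MDP before Pam3CSK4), 6.58 (Pam3CSK4 before Pam3CSK4) and 5.70 (naive) with Pam3CSK4 last, and at 5.31 in unstimulated cells. The MDP before MDP and unstimulated values lay below their array medians. Among the stimulated arrays Ifnb1 was below background in MDP before MDP alone, where Cxcl10 and Cxcl11 had their lowest stimulated values. Ifnb1 was close to background in naive cells too, where the array medians were 5.55 with MDP and 5.54 with Pam3CSK4. Ifnb1 was highest in Pam3CSK4 before MDP, whereas Cxcl10 and Cxcl11 were highest in MDP before Pam3CSK4. A link between these levels was not tested. Irf1, a transcription factor of interferon responses, was at 10.14 in MDP before MDP and 11.18 in naive cells with MDP, a difference of -1.04, and was at 11.90 in MDP before Pam3CSK4. Irf7, which amplifies interferon production, was 2.56 higher in Pam3CSK4 before MDP than in naive cells with MDP, and Socs1, a feedback inhibitor, 2.17 higher. Past 2-fold in that comparison were 5 of the 11 measured components, all higher, where 2.14% of all genes were higher and 1.71% lower.

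Proteins that control the decay of chemokine mRNA were read in the same comparisons. Zfp36, which binds AU-rich elements and speeds decay, was at 11.52 in Pam3CSK4 before Pam3CSK4 and 12.92 in naive cells given Pam3CSK4, a difference of -1.40. It was the 1 of 11 decay and stability factors past 2-fold there, where 2.3% of all genes were lower and 2.41% higher. Zc3h12a, a ribonuclease of inflammatory mRNAs, was 2.18 higher in Pam3CSK4 before MDP than in naive cells with MDP, and Zfp36l1 fell by 1.17 in that comparison. Their part in the chemokine levels was not tested.

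Of the 7 receptor genes measured, 4 were below the array median on all 7 arrays. Among these, Cxcr2, the receptor of the attractants, lay between 4.43 and 4.92, and Cxcr6, the receptor of Cxcl16, between 4.22 and 4.70. Cxcr3, the receptor of Cxcl9, Cxcl10 and Cxcl11, was at 6.94 in Pam3CSK4 before MDP and 6.74 in Pam3CSK4 before Pam3CSK4, against 7.79 and 7.89 in naive cells with MDP and Pam3CSK4 and 8.01 in unstimulated cells. Cxcr4, whose ligand Cxcl12 was below background on all 7 arrays, fell by 2.93 in naive cells given Pam3CSK4 relative to unstimulated cells. Cxcr4 was at 7.80 to 8.45 on the 4 arrays that had seen Pam3CSK4 and at 10.45 to 11.10 on the other 3. The proteases that release Cxcl16 each varied by less than 2-fold over the 7 arrays, Adam10 from 11.47 to 12.17 and Adam17 from 11.16 to 11.99.

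Along chromosome 5 the genes lie in the order Cxcl5, Ppbp, Pf4, Cxcl3, Cxcl15, Cxcl1 and Cxcl2, with no other coding gene between them, and 16 coding genes further on come Cxcl9, Cxcl10 and Cxcl11. Cxcl16 is on chromosome 11. Neighbours differed. Ppbp, a platelet chemokine gene next to Cxcl5, was at 11.42 in Pam3CSK4 before MDP and 11.30 in Pam3CSK4 before Pam3CSK4, against 9.41 and 8.26 in naive cells with MDP and Pam3CSK4 and 9.43 in unstimulated cells. Ppbp was 3.04 higher in Pam3CSK4 before Pam3CSK4 than in naive cells given Pam3CSK4, where Cxcl5 was at least 1.94 higher, and 2.01 higher in Pam3CSK4 before MDP than in naive cells given MDP. Pf4, the next gene, stayed between 14.18 and 14.48 on the 7 arrays, and Cxcl15 stayed below background. At the other end of the cluster Cxcl1 was lower and Cxcl2 within 2-fold in the same comparison. Of the 9 other ligands measured, Ppbp was the 1 past 2-fold higher there, against 2.41% of all genes. Cxcl14, a ligand of another kind made in many tissues, fell by 2.29 in naive cells with Pam3CSK4 relative to unstimulated cells.

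**Figure D4:**
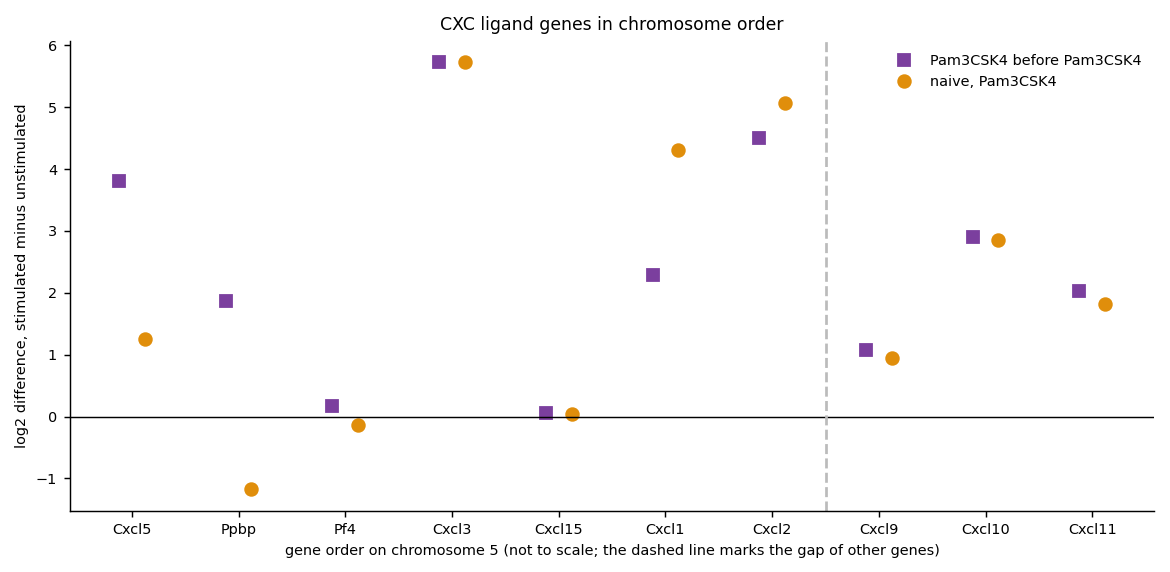
Ligand genes stand in their order on chromosome 5 along the horizontal axis, which is not to scale, and the vertical axis gives log2 differences from the unstimulated array for Pam3CSK4 before Pam3CSK4 (squares) and naive cells with Pam3CSK4 (circles). Cxcl5 and Ppbp have the square far above the circle, Cxcl1 has it below by 2.01, and Cxcl3, Cxcl9, Cxcl10 and Cxcl11 have both together. All Cxcl5 and Cxcl9 points are counted from an unstimulated value below background, and both values of the Cxcl5 circle lie below it.

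Markers of other cells were read beside the rise of Cxcl5 in Pam3CSK4-pretreated cells. Of the 7 neutrophil markers measured, 6 were above the array median on all 7 arrays, and Mpo, a defining granule protein, on none. The log2 of the summed marker level was 13.14 in Pam3CSK4 before MDP, 13.07 in Pam3CSK4 before Pam3CSK4, 12.72 in MDP before MDP, 12.84 in MDP before Pam3CSK4, 12.38 and 12.51 in naive cells with MDP and Pam3CSK4 and 12.39 in unstimulated cells. S100a8, which macrophages also express, was 1.12 and 1.10 above unstimulated cells in Pam3CSK4 before MDP and Pam3CSK4 before Pam3CSK4. The granule genes Elane (0.03 and 0.05), Ngp (0.01 and -0.17), Camp (-0.19 and -0.26) and Ltf (-0.69 and -1.16) did not pass 2-fold upward in them. Of the 7 stromal and endothelial markers, 2 or 3 were above the median, with a log2 summed level of 9.14 and 8.98 in Pam3CSK4 before MDP and Pam3CSK4 before Pam3CSK4, against 8.26 to 8.34 on the other 5 arrays. Among them Dcn, a matrix proteoglycan gene, was at 8.34 and 8.03 in those cells, against 6.47 in unstimulated cells, while Col1a1 and Col3a1 were below background on all 7 arrays. Of the 7 T and NK cell markers 3 or 4 were above the median, with a log2 summed level of 8.86 to 8.98. The summed level of the B cell markers was lower in pretreated cells, with Ighm the lowest of them relative to unstimulated cells. Their median difference from unstimulated cells was 0.00 to 0.06 in the pretreated groups. Of the 4 measured, 2 or 3 were above the median, and their log2 summed level was 9.18 in Pam3CSK4 before MDP, 9.03 in Pam3CSK4 before Pam3CSK4, 9.28 in MDP before MDP and 9.32 in MDP before Pam3CSK4, against 10.69 and 10.62 in naive cells with MDP and Pam3CSK4 and 10.73 in unstimulated cells. Ighm, the immunoglobulin mu heavy chain gene, was at -2.63 in Pam3CSK4 before MDP and -2.77 in Pam3CSK4 before Pam3CSK4 relative to unstimulated cells, and at -2.01 and -1.96 in MDP before MDP and MDP before Pam3CSK4. Ms4a1, a defining B cell marker, was below the median on all 7 arrays. Of the 4 dendritic cell markers 1 or 2 were above the median, with a log2 summed level of 7.54 to 7.80. The part of other cells in the Cxcl5 levels, and in the other differences between pretreated and naive cells, was not tested.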

How the data were processed

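Expression was measured with 1 Affymetrix array in each of 7 samples of mouse macrophages, all carrying replicate number 2. Per the labels, biotinylated cRNA was made from total RNA purified with a silica column kit. The authors deposited log2 expression values per probe set, and the submitters' processing notes name RMA and the affy package. Versions, the probe set definitions, the genome build and which arrays were normalized together are not given in the sources used here. RMA brings arrays to a common distribution and compresses differences of dim probe sets. The values ran from 2.95 to 15.1, were not transformed again and are not centred per gene, and the array medians were 5.48 and 5.50 in MDP-pretreated cells given MDP and Pam3CSK4, 5.53 and 5.54 in Pam3CSK4-pretreated cells given MDP and Pam3CSK4, 5.55 and 5.54 in naive cells given MDP and Pam3CSK4, and 5.50 in unstimulated cells.

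Of 45101 probe sets, 64 were controls, 34945 had 1 symbol in the platform table and 932 several. Each of 18193 genes was represented by its brightest probe set by the mean of the 7 arrays. All 8 members were measured, by 13 probe sets, and all 8 were in the RefSeq gene table.

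Differences were taken between pairs of arrays in 15 comparisons, with 3-fold as the threshold over unstimulated cells and 2-fold elsewhere, after the series design text. With 1 array per group no test was possible. Whether the cultures were separate is not stated. The members, the lists and the comparisons were chosen with earlier results of these data known. Named genes are all members, the 2 genes most like each member over the 6 stimulated arrays, up to 4 genes of each list past the threshold, and receptors and other CXC ligands. List genes named beside these for a known role, such as markers and single regulators, were chosen after their values were seen. Motifs were searched on both strands of 250 bases before each RefSeq start.

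Alternatives were centring arrays on medians or housekeeping genes, cyclic loess (span 0.7, 3 iterations), averaged probe sets, dropping probe sets with less specific suffixes, adding 32 to the linear values, setting values below the array median to it, and the other fold threshold. Leaving Cxcl5 out of its class was chosen after seeing the data. The calculation was tested on simulated data. Python 3.11.15, numpy 2.4.6, pandas 2.3.3, matplotlib 3.10.9, R 4.3.3 and limma 3.58.1 were used.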

Additional observations from a re-analysis of the deposited data

Results flagged for a closer look

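After Pam3CSK4 pretreatment, Cxcl1 moved in opposite directions in the comparisons with MDP last and with Pam3CSK4 last. Against naive cells given the same ligand, the difference was 2.24 with MDP last and -2.01 with Pam3CSK4 last, each past 2-fold. Pam3CSK4-pretreated cells had nearly the same Cxcl1 level with either ligand (9.81 with MDP and 9.49 with Pam3CSK4), between the naive levels of 7.57 with MDP and 11.50 with Pam3CSK4. The probe set 1419209_at gave 3.21 and -2.03, and 1441855_x_at gave 0.74 and -1.30, the first of these short of 2-fold.

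Cxcl3 with MDP last moved in opposite directions by pretreatment. It was at -1.34 after MDP and at 2.13 after Pam3CSK4, against the same naive array given MDP. Its level was 8.78 after MDP and 12.24 after Pam3CSK4, against 10.11 in naive cells. For both genes each difference rests on 1 array a group, and the difference between the comparisons was not tested.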

How the results depend on the processing

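Each comparison rests on 1 array against 1, so variation between cultures is unknown and no array could be left out. No paired analysis was possible because every group had 1 array. Signal near background limits Cxcl5 and Cxcl9. Of 840 member differences under the alternatives, 821 kept their side of the threshold, 16 lost it, 2 gained it and 1 turned. A turn was counted only for a difference past the threshold. The counted turn was Cxcl5 in naive Pam3CSK4 minus naive MDP. It was at -0.0034 with values below the array median set to it, because both values were below. Some differences short of the threshold changed sign and are among the 821. Cxcl1 in MDP before MDP over unstimulated cells ran from -0.10 to 1.29. Cxcl3 in Pam3CSK4 before Pam3CSK4 minus naive Pam3CSK4 ran from -0.02 to 0.09. With averaged probe sets, 0 members were 2-fold higher in MDP before Pam3CSK4 than in naive cells given Pam3CSK4 (1 as deposited), and 1 was lower in Pam3CSK4 before Pam3CSK4 than in MDP before Pam3CSK4 (2 as deposited), Cxcl11 being the member lost. With 32 added to the linear values, 1 member was 3-fold over unstimulated in MDP before MDP (2 as deposited), without Cxcl10. With the other fold threshold that last count was 4, the count lower in MDP before MDP than in naive cells with MDP was 0 (2 as deposited), the count higher in MDP before Pam3CSK4 than in naive cells with Pam3CSK4 was 0, and the count lower in Pam3CSK4 before Pam3CSK4 than in MDP before Pam3CSK4 was 1. The class contrast over unstimulated for Pam3CSK4 before MDP was 0.86 with values set to the median (1.52 as deposited), since this raises the unstimulated Cxcl5. Over 9 settings the contrast ran from -0.50 to 0.63 in naive cells with MDP and from -0.33 to 0.46 in MDP before MDP, changing sign, and from 2.87 to 3.77 in naive cells with Pam3CSK4. It also changed sign for MDP before MDP minus naive MDP, from -0.18 to 0.29. Centring on housekeeping genes moved the median of all genes by up to 0.15, in Pam3CSK4 before Pam3CSK4 over unstimulated cells. No member lost a call with this centring. Cxcl9 in Pam3CSK4 before MDP minus naive MDP, short of 2-fold, changed sign with it, from -0.12 to 0.0003.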
